A study of Homo sapiens with 9 samples.

Results

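The NDRG family, the N-myc downstream regulated genes, was followed in A498 cells after depletion of ARNT or BMAL1. Its 4 members, NDRG1, NDRG2, NDRG3 and NDRG4, were taken by name from a table of 27671 genes. All 4 were among the 15551 genes that passed the filter on low counts. The family was chosen by the measured levels of NDRG1 in these libraries, which were much lower in both depletions, so the NDRG1 values are given as a description without a test. NDRG2, NDRG3 and NDRG4 entered as paralogs of NDRG1, whatever their values, and the question was whether they followed it.

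A498 is an established human line derived from clear cell renal cell carcinoma (ccRCC), a tumor in which loss of VHL function commonly leaves hypoxia-inducible factors (HIFs) stable. Cells were infected with a PLKO.1 lentivirus that carried a control hairpin (shControl, genotype given as WT), a hairpin against BMAL1 (shBMAL1, BMAL1 knockdown) or a hairpin against ARNT (shARNT, ARNT knockdown). All groups, the control included, were selected and then kept in puromycin. Stranded mRNA libraries were sequenced from 3 biological replicates per group, 9 libraries in all, with totals of 35269851 to 36099075 counts. Each target was represented by 1 group of libraries, so the effect of a target and that of its hairpin cannot be told apart.

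NDRG proteins share an α/β-hydrolase fold but are not known to act as hydrolases. NDRG1 responds to hypoxia and other stresses and is a well known HIF target, and MYC and MYCN repress it. SGK1 phosphorylates NDRG1 and NDRG2, and GSK3 adds further phosphates to NDRG1. NDRG2 is abundant in brain and has been described as a candidate tumor suppressor. NDRG3 protein is removed through oxygen-dependent prolyl hydroxylation and is stabilised by lactate. NDRG4 is known mainly from heart and brain. ARNT is the classical partner of HIF1α and HIF2α, BMAL1 is the partner of CLOCK, and all of them are bHLH-PAS transcription factors.

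The members lie on 4 different chromosomes (GRCh37, GENCODE annotation). NDRG1 occupies chromosome 8 from 134249418 to 134314265 on the minus strand, and NDRG2 chromosome 14 from 21484922 to 21539031 on the minus strand. NDRG3 occupies chromosome 20 from 35280169 to 35374493 on the minus strand, and NDRG4 chromosome 16 from 58496750 to 58547532 on the plus strand. Their canonical transcripts are close in length, with 3025, 2978, 2971 and 3208 bases for NDRG1 to NDRG4.

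Across all genes, the libraries of both depletions differed widely from the control. At an adjusted p under 0.1, 81.8% of tested genes were called in shARNT against shControl, 63.4% in shBMAL1 against shControl and 81.2% in shARNT against shBMAL1. The control libraries were shared by both depletions. Levels are given in CPM, each count relative to its library's size on the usual scale for sequencing depth, after TMM scaling (trimmed mean of M values). Without that scaling, under library size alone, the median of all log2 fold changes was 0.23 in shARNT and 0.05 in shBMAL1 against shControl and to 0.18 in shARNT against shBMAL1, and the share of calls that were higher was 60.5%, 55.8% and 58.6% in place of 49.6%, 50.3% and 49.4%. The ARNT transcript was left at 18.8% of control in shARNT and at 63.9% in shBMAL1, and the BMAL1 transcript, listed as ARNTL, at 30.9% in shBMAL1 and 146% in shARNT. Of 10 markers of renal epithelium and ccRCC, 8 were above 1 CPM in each group. Their summed level was 7970 to 8029 CPM in the shControl libraries, 5880 to 6350 in shBMAL1 and 2212 to 2383 in shARNT. Most of that sum was VIM, a mesenchymal filament gene that ccRCC also expresses, at 5974 CPM in shControl, 4309 in shBMAL1 and 812 in shARNT. The list did not move together, since PAX8 was at 279% of control and KRT18 at 99.5% in shARNT, and CDH16 was at 293% in shBMAL1 and 39.6% in shARNT. NDUFA4L2 and EPCAM were not above 1 CPM in any group. The 3 erythroid markers were at 0 in shControl and shBMAL1, and the 4 endothelial markers summed to at most 0.412 CPM in any library. Of 6 immune markers, CD68 alone was above 1 CPM, and it carried a sum (CPM) of 1786 to 1904 in shControl, 1753 to 1865 with shBMAL1 and 136 to 149 with shARNT. The 6 neural and glial markers summed to between 11.1 and 20.1 CPM, with 3 above 1 CPM in shControl and shBMAL1 and 1 in shARNT. The 3 above it in shControl were GFAP, SNAP25 and MBP, at 13.4%, 30.3% and 166% of control in shARNT. The part of these shifts in the NDRG values was not tested.

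NDRG1, the stress-responsive founding member of the family, was among the most abundant transcripts of control A498 cells and was lower in both depletions. It had 139359, 136653 and 140282 counts in the shControl libraries, 57388, 62000 and 62748 in shBMAL1, and 5080, 5112 and 5042 in shARNT. The 3 groups were far apart and did not overlap. The level was 4195 ± 48.4 CPM (SD, n = 3) in shControl, 1774 ± 86.1 CPM in shBMAL1 and 128 ± 1.10 CPM in shARNT. This left 42.3% of the control level in shBMAL1 and 3.06% in shARNT. By level, NDRG1 ranked 14 of 15551 tested genes in shControl, 55 in shBMAL1 and 1510 in shARNT. Even at its lowest, NDRG1 thus stayed above 90.3% of tested genes on the CPM scale.

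The NDRG1 log2 fold change was -5.03 in shARNT (SE 0.0417, 95% interval -5.12 to -4.95) and -1.24 in shBMAL1 (SE 0.0354, 95% interval -1.32 to -1.17), and its level in shARNT was 13.8-fold lower than in shBMAL1. Only 0.444% of tested genes had a lower fold change than NDRG1 in shARNT, and 3.70% did in shBMAL1. No test was made of these values, because the fall of NDRG1 selected the family.

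**Figure D1:**
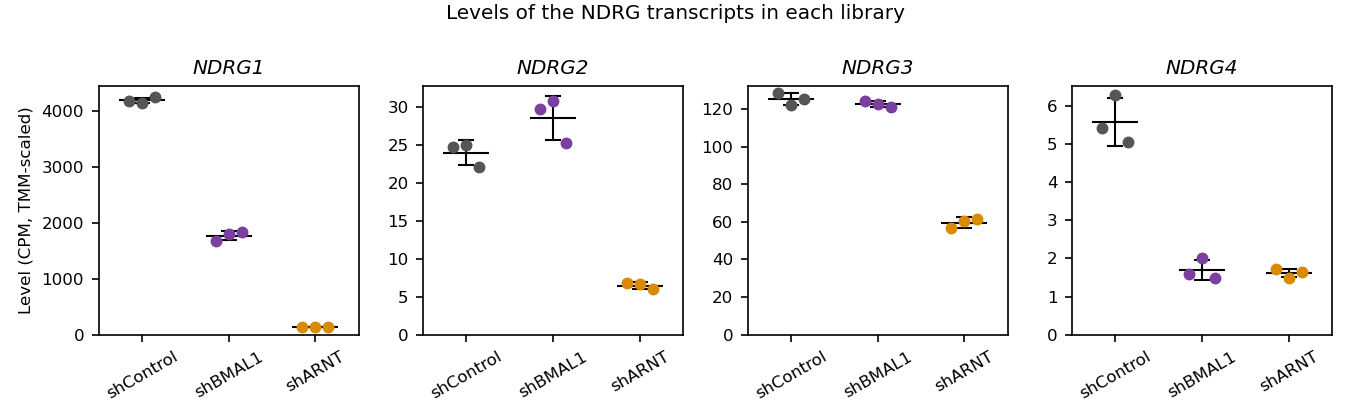
Level of each NDRG transcript (CPM, TMM-scaled, linear axes from 0, a scale of its own for each gene) in the 9 libraries of A498 cells. Points are libraries, the long black dash is the group mean and the capped bar is the SD. NDRG1 steps down from shControl to shBMAL1 to shARNT, NDRG2 and NDRG3 are low only in shARNT, and NDRG4 is low in both depletions at about the same level.

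The paralogs split in their response. All 3 fell in cells expressing shARNT, whereas in cells expressing shBMAL1 NDRG4 fell, NDRG2 rose slightly and no change of NDRG3 was detectable. The background matters here, since 41.3% of all tested genes were called lower in shARNT and 40.2% had no overlap between shARNT and shControl libraries in that direction. In the other direction, 40.5% were called higher and 39.5% did not overlap. For shBMAL1, 31.5% of tested genes were called lower and 31.9% higher, and 30.8% and 31.4% did not overlap. For shARNT against shBMAL1, 41.1% were called lower and 40.1% higher, and 40.3% and 39.4% did not overlap. A call alone therefore says little about a member, and the sizes of the changes are given below beside those of all genes.

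NDRG4, the least abundant member, was lower in both depletions. It had 181, 207 and 167 counts in shControl, 54, 69 and 51 in shBMAL1, and 68, 59 and 65 in shARNT. Every depleted library was below every control library, and the depletions overlapped. The level was 5.59 ± 0.631 CPM in shControl, 1.69 ± 0.271 CPM in shBMAL1 and 1.62 ± 0.114 CPM in shARNT (SD, n = 3). NDRG4 fell by 1.72 on the log2 scale in shBMAL1 (SE 0.170, 95% interval -2.08 to -1.36, adjusted p = 3.72e-08). This and every other adjusted p comes from edgeR's quasi-likelihood test, adjusted by the Benjamini-Hochberg method over all tested genes. In shARNT NDRG4 fell by 1.79 (SE 0.168, 95% interval -2.14 to -1.44, adjusted p = 5.46e-09). In shBMAL1 this was 30.3% of the control level, against 42.3% for NDRG1, and only 1.56% of tested genes had a lower fold change than NDRG4.

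The NDRG4 levels of the depletions were not distinguished. In shARNT against shBMAL1 its log2 fold change was -0.07 (95% interval -0.46 to 0.32, adjusted p = 0.747), so any difference inside that interval was not detectable with these counts. The sign turned under scaling by library size alone (0.12) and without shBMAL1 replicate 2 (0.070). The NDRG1 value in the same comparison, given without a test, was -3.79.

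NDRG2 was the member that moved in opposite directions. It had 825, 824 and 731 counts in shControl, 1015, 1059 and 857 in shBMAL1, and 268, 262 and 238 in shARNT. The shARNT libraries were far below all others, and the lowest shBMAL1 library (25.2 CPM) lay just above the highest shControl library (25.0 CPM). The group levels were 24.0 ± 1.61 CPM in shControl, 28.5 ± 2.94 CPM in shBMAL1 and 6.46 ± 0.409 CPM in shARNT (SD, n = 3).

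The fall of NDRG2 in shARNT was -1.89 on the log2 scale (SE 0.0916, 95% interval -2.08 to -1.70, adjusted p = 1.26e-13), which left 26.9% of control, and 7.63% of tested genes had a lower fold change. In shBMAL1 it rose by 0.25 (SE 0.0811, 95% interval 0.08 to 0.42, adjusted p = 0.0121), a 1.19-fold increase that 70.8% of tested genes lay below. This rise was not called when a minimum fold change of 1.5 was required (adjusted p = 1). The direct comparison of shARNT with shBMAL1 gave -2.14 (95% interval -2.33 to -1.95, adjusted p = 1.45e-14), a 4.42-fold lower level.

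NDRG2 is the only member whose locus is overlapped by other protein-coding genes, which are named here because of their position. TPPP2, RNASE7, RNASE8 and RNASE13 had at most 3 counts in any library. ARHGEF40, on the opposite strand, had 3115 to 3428 counts in every library. Its log2 fold change was -0.28 in shARNT (adjusted p = 1.24e-05), and it was -0.00 in shBMAL1 (adjusted p = 0.982). No source used here says whether counting was by strand, so reads of the shared stretch could be assigned to either gene. Their part in the NDRG2 values was not tested.

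NDRG3, the member whose protein is controlled by oxygen and lactate, was lower in shARNT. It had 4286, 4019 and 4145 counts in shControl, 4259, 4233 and 4121 in shBMAL1, and 2240, 2398 and 2453 in shARNT. The shControl and shBMAL1 libraries overlapped, and all shARNT libraries were below them. The level was 125 ± 3.33 CPM in shControl, 123 ± 1.70 CPM in shBMAL1 and 59.7 ± 2.75 CPM in shARNT (SD, n = 3).

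The fall of NDRG3 in shARNT was -1.07 on the log2 scale (SE 0.0453, 95% interval -1.17 to -0.98, adjusted p = 1.33e-14), to 47.6% of control, and 17.8% of tested genes had a lower fold change. In shBMAL1 its log2 fold change was -0.03 (SE 0.0440, adjusted p = 0.585). The 95% interval ran from -0.12 to 0.06 and did not reach that of NDRG4 in the same libraries. Between shARNT and shBMAL1 the difference was -1.04 (95% interval -1.14 to -0.95, adjusted p = 2.12e-14).

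**Figure D2:**
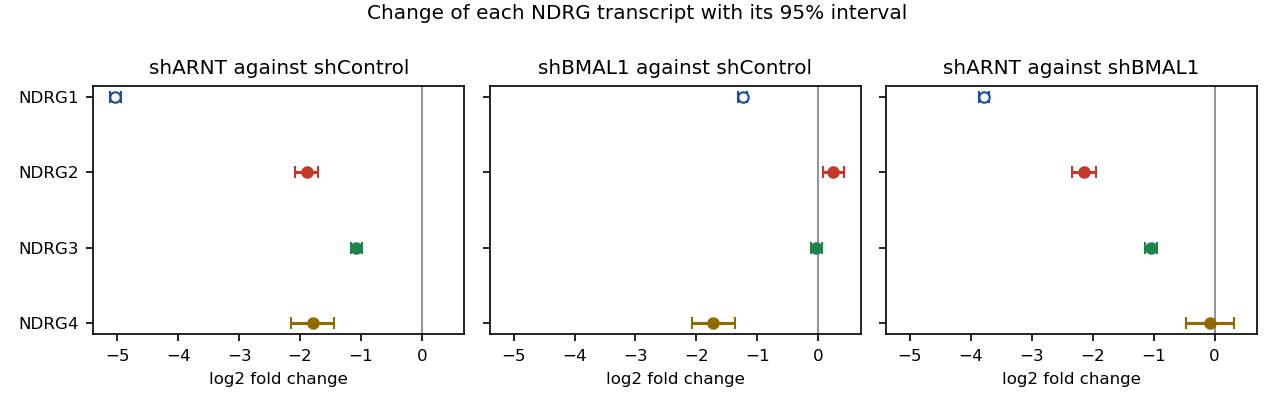
log2 fold change of each NDRG transcript in the 3 comparisons, with 95% intervals from the edgeR fit of all 9 libraries. NDRG1 is drawn with an open symbol because its fall selected the family and it was not tested. In shBMAL1 against shControl the interval of NDRG4 lies below 0, that of NDRG2 above it and that of NDRG3 across it, while in shARNT against shControl all 3 paralogs lie below 0.

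By size, the paralogs' fall in shARNT was ordered NDRG2, NDRG4 and NDRG3. The intervals of NDRG2 (-2.08 to -1.70) and NDRG4 (-2.14 to -1.44) overlapped, so these neighbours in the order were not told apart, and that of NDRG3 (-1.17 to -0.98) was separate from both. In shBMAL1 the order was NDRG4, NDRG3 and NDRG2, from -1.72 to 0.25, and each interval was separate from the next. Differences between paralogs were not tested further. The NDRG1 values of -5.03 and -1.24 chose the family, so their place beside the paralogs is a description only.

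**Figure D3:**
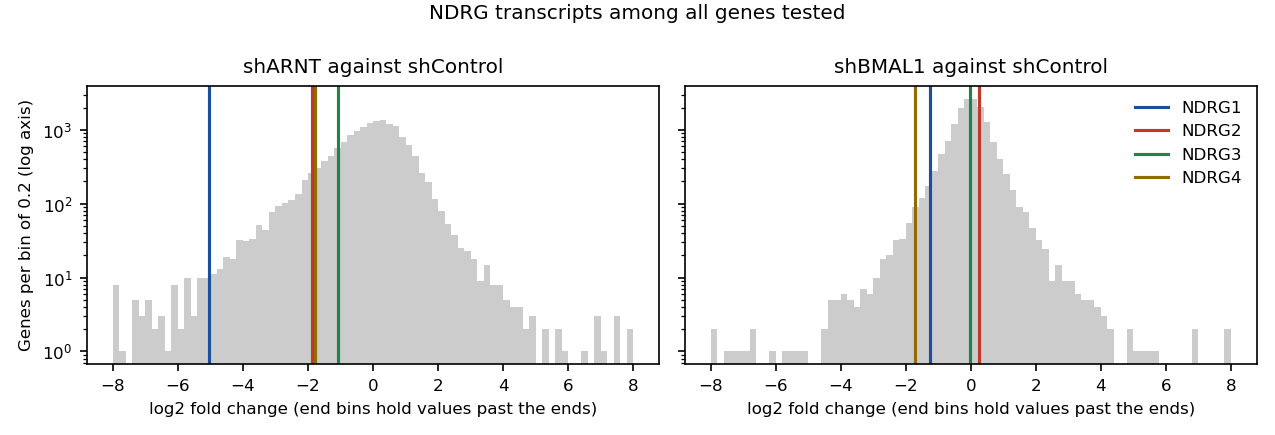
Distribution of the log2 fold changes of the 15551 tested genes (grey, log axis for the number of genes) in each depletion against shControl, with the 4 members as vertical lines. In shARNT all 4 lines lie left of 0 and NDRG1 is deep in the left tail, and in shBMAL1 NDRG4 and NDRG1 lie in the left tail while NDRG3 and NDRG2 are near the centre.

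Because the members have transcripts of similar length, their levels can be set side by side as CPM per kb of canonical transcript. In shControl, NDRG1 had 1387 ± 16.0 CPM per kb, NDRG3 42.2 ± 1.12, NDRG2 8.05 ± 0.540 and NDRG4 1.74 ± 0.197 (SD, n = 3). The order NDRG1, NDRG3, NDRG2 and NDRG4 was the same in all 9 libraries, and within each group no neighbours in it overlapped. In shARNT the values were 42.4 ± 0.363 for NDRG1, 20.1 ± 0.927 for NDRG3, 2.17 ± 0.137 for NDRG2 and 0.504 ± 0.0356 for NDRG4. The level of NDRG1 in shARNT was thus close to that of NDRG3 in control cells.

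The make-up of the family changed with the depletions. NDRG1 made up 96.4% ± 0.0953 of the family level per kb in shControl, 91.9% ± 0.545 in shBMAL1 and 65.1% ± 0.865 in shARNT, and NDRG3 made up 2.93% ± 0.0702, 6.49% ± 0.371 and 30.8% ± 1.12. The summed level of the family was 1439 ± 15.8, 638 ± 27.4 and 65.1 ± 0.806 CPM per kb in shControl, shBMAL1 and shARNT, so that 44.4% and 4.53% of the control level remained in the depletions. The 3 paralogs together kept 99.0% of their control level in shBMAL1 and 43.7% in shARNT. The NDRG1 share follows from the values that chose the family and was not tested. In bulk RNA, fewer cells with a transcript and less transcript per cell cannot be told apart.

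**Figure D4:**
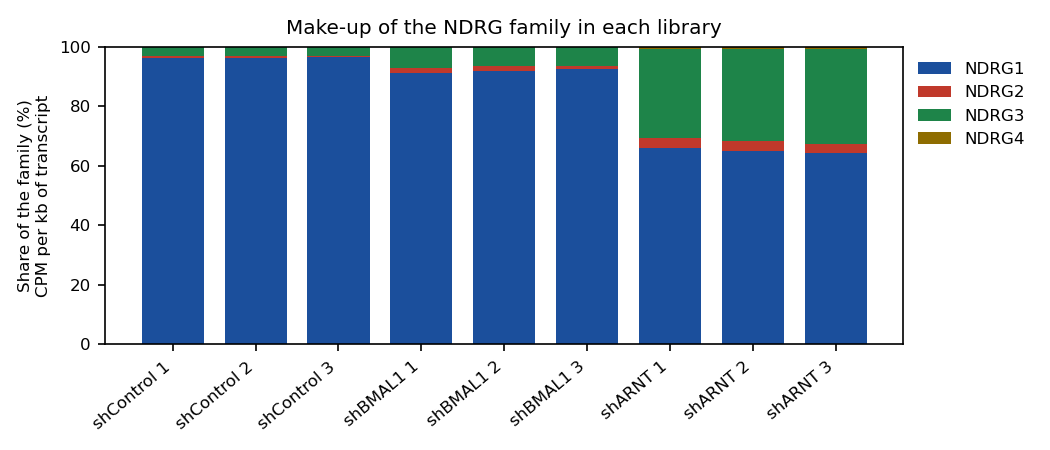
Share of each member in the summed level of the NDRG family (percent, from CPM per kb of canonical transcript) in every library. NDRG1 is nearly the whole family in shControl. In the shARNT libraries the share of NDRG3 is 29.6% to 31.8% and that of NDRG1 is 64.3% to 66.0%. The level of NDRG3 itself is lower in shARNT than in shControl. NDRG4 is below 1% throughout and is barely visible.

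Upstream sequences are shown for the members found in the RefSeq promoter table (GRCh38.p14), NDRG2 with 5 start sites and NDRG4 with 4. NDRG1 and NDRG3 had no entry. They are printed because the core of the hypoxia response element, which HIF dimers bind, is ACGTG or GCGTG, and the E-box of BMAL1 and CLOCK is CACGTG, which contains ACGTG. Windows of 300 bases, 250 before and 50 after a start, were searched on both strands. The HRE core was found in 3 of 5 NDRG2 windows and 1 of 4 NDRG4 windows, and no window held an E-box. Overlapping windows of NDRG2 shared 1 of these matches, so its 3 windows held 2 distinct sites. Over the whole table, 48.4% of 35116 windows held an HRE core and 7.26% an E-box, so such a match is common and describes the letters only.

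The 250 bases before a start are given 5′ to 3′ for 1 NDRG2 window (chr14:21025106-21025355, minus strand) and for the NDRG4 window with matches (chr16:58463465-58463714, plus strand). Capitals mark the HRE core, read as GCGTG on the strand shown for NDRG2 and as CACGC, its reverse complement, for NDRG4.
NDRG2: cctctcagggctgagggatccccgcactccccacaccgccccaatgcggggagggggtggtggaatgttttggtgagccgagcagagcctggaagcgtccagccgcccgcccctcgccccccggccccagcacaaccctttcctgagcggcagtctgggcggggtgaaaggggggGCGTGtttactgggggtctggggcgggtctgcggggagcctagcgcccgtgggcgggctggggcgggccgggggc
NDRG4: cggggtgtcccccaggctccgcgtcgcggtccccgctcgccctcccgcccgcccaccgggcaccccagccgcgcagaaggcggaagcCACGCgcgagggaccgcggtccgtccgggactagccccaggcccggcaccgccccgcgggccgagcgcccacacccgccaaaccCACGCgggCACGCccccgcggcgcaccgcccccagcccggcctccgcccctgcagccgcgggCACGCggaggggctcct
The NDRG2 match began 75 bases before the start, and the 4 matches of NDRG4 began 163, 79, 71 and 17 bases before it. The NDRG2 windows held 1 match at most. Which of these starts A498 cells use was not measured.

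The nearest protein-coding genes at higher coordinates were named by their position. SETD6, 1851 bases from NDRG4, rose by 0.22 in shARNT (adjusted p = 0.0304) and fell by 0.24 in shBMAL1 (adjusted p = 0.0317). DSN1, 5701 bases from NDRG3, fell by 0.69 (adjusted p = 6.57e-09) and 0.36 (adjusted p = 9.15e-05). ST3GAL1, 152826 bases from NDRG1, rose by 0.31 (adjusted p = 2.91e-04) and 0.95 (adjusted p = 2.05e-10). ZNF219, 19205 bases from NDRG2, rose by 0.36 (adjusted p = 1.52e-04) and fell by 0.57 (adjusted p = 2.43e-06). DSN1 was thus the only one of the 4 that was lower in both depletions, beside a member that was lower only in shARNT. On the other side, GINS3 near NDRG4 was higher in both (0.69 and 0.25, adjusted p = 2.26e-05 and 0.0845), and SLC39A2 and SLA2 were not among the tested genes. CCN4, listed under its older symbol WISP1 and near NDRG1, had very low counts. It fell by 1.54 with shARNT (adjusted p = 0.0186), and its value of 0.55 with shBMAL1 was not called (adjusted p = 0.328).

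The upstream factors of the pathway were examined next. The list of HIF subunits, clock partners, VHL and HIF hydroxylases had 12 genes, of which 11 were tested. In shARNT 5 were called lower and 6 higher, with a median log2 fold change of 0.15, and in shBMAL1 4 were lower and 5 higher, with a median of 0.05. The medians of all tested genes were -0.01 and -0.00. Of all tested genes, 41.3% were called lower and 40.5% higher in shARNT, and 31.5% and 31.9% in shBMAL1. EPAS1, which encodes HIF2α, fell to 21.5% of control in shARNT and 67.5% in shBMAL1 (log2 fold changes -2.22 and -0.57, adjusted p = 2.94e-18 and 1.54e-08). HIF1A rose by 1.48 and 1.59 (adjusted p = 5.02e-17 and 2.43e-16). EGLN3, a HIF prolyl hydroxylase that is itself a HIF target, fell by 3.43 in shARNT and rose by 0.58 in shBMAL1 (adjusted p = 1.30e-21 and 1.35e-09). ARNTL2, which encodes BMAL2, rose by 2.25 in shARNT and 2.13 in shBMAL1 (adjusted p = 3.53e-13 and 5.99e-12).

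EPAS1 was thus lower in both depletions, like NDRG1 and NDRG4, while NDRG2 and NDRG3 were lower in shARNT without a fall in shBMAL1. ARNT was also lower in both, but it is the target of the shARNT hairpin. ARNT2 was called lower in both too (-1.29 and -0.18, adjusted p = 2.35e-11 and 0.0679). Its call in shBMAL1 was lost under library size alone (-0.13, adjusted p = 0.180). HIF1A and ARNTL2 were higher in both. So were CLOCK (0.67 and 0.28, adjusted p = 5.81e-07 and 0.0107) and HIF1AN (0.15 and 0.34, adjusted p = 0.0402 and 1.47e-04). ARNT2, CLOCK and HIF1AN were named after their values were seen. Which part these transcripts had in the NDRG values was not tested. Transcripts of the HIF subunits do not measure their proteins, which were not examined here. In another ccRCC line, the study reported that neither depletion reduced HIF2α protein.

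Of 13 other regulators reported for NDRG genes, 11 were tested. In shARNT 3 were called lower and 5 higher (median 0.01), and in shBMAL1 5 were lower and 5 higher (median 0.18). The shares of all tested genes were 41.3% lower and 40.5% higher in shARNT, and 31.5% and 31.9% in shBMAL1. MYC, a repressor of NDRG1 and NDRG2, fell by 1.02 in shARNT (adjusted p = 1.92e-14) and by 0.12 in shBMAL1 (adjusted p = 0.0243), and the latter was not called under library size alone (-0.07, adjusted p = 0.174). AHR, the aryl hydrocarbon receptor and another partner of ARNT, rose by 0.55 and 1.67 (adjusted p = 9.45e-09 and 1.36e-15). EGR1, chosen after its values were seen, is an immediate early factor and had the largest fall of the list in shARNT, by 3.91 (adjusted p = 1.24e-12), with -0.42 in shBMAL1 (adjusted p = 0.0289).

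The kinases that act on NDRG1 and NDRG2 were followed as a list of 11 genes of the mTORC2, PDPK1, SGK and GSK3 axis, all of which were tested. In shARNT 2 were lower and 7 higher (median 0.44), and in shBMAL1 4 were lower and 4 higher (median -0.01). In shARNT against shBMAL1 10 were higher and 1 lower (median 0.57). Over all tested genes, 41.3% were called lower and 40.5% higher in shARNT, 31.5% and 31.9% in shBMAL1, and 41.1% and 40.1% between the depletions. SGK1 was at 6.76, 7.75 and 8.26 CPM in shControl, at 3.19, 3.77 and 2.59 CPM in shBMAL1, and at 3.74, 4.73 and 5.74 CPM in shARNT. It fell by 1.25 in shBMAL1 (adjusted p = 1.82e-06) and by 0.68 in shARNT (adjusted p = 5.17e-04). SGK1, like NDRG4, was therefore lower in both depletions. It differed by 0.57 in shARNT against shBMAL1 (adjusted p = 0.00438), although the libraries of the depletions overlapped.

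RICTOR, the defining subunit of mTORC2, rose by 1.60 in shARNT and 0.36 in shBMAL1 (adjusted p = 3.53e-13 and 0.00139), and MTOR rose by 1.12 and 0.32 (adjusted p = 1.40e-13 and 5.70e-05). GSK3B rose by 0.66 in shARNT (adjusted p = 4.90e-09) and was not called in shBMAL1 (-0.08, adjusted p = 0.290). PRR5, another mTORC2 subunit, fell by 1.04 in shBMAL1 (adjusted p = 4.88e-09), with -0.00 in shARNT (adjusted p = 0.976). SGK2 rose by 0.77 in shBMAL1 (adjusted p = 3.87e-08), and its change in shARNT (-0.19, adjusted p = 0.0299) turned to 0.04 under library size alone. Transcripts of the kinases do not measure phosphorylation of NDRG proteins, which was not examined.

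Among 6 genes of proposed partners and effectors of NDRG1, 5 were tested, of which shARNT libraries had 1 lower and 3 higher (median 0.09). The lower one, RAB4A, a small GTPase of endosome recycling named here after its values were seen, had a log2 fold change of -0.12 (adjusted p = 0.0974). It was not called under RLE scaling (adjusted p = 0.109) and turned to 0.12 under library size alone (adjusted p = 0.120). In shBMAL1 1 was lower and 4 were higher (median 0.30). Beside this list, 41.3% of all tested genes were called lower and 40.5% higher in shARNT, and 31.5% and 31.9% in shBMAL1. CD82, a tetraspanin, rose by 2.08 in shBMAL1 (adjusted p = 1.65e-17) and by 0.09 in shARNT (adjusted p = 0.0867). LRP6, a Wnt co-receptor, rose by 0.84 and 0.66 in shARNT and shBMAL1 (adjusted p = 7.05e-10 and 1.11e-07). HSPA8, a constitutive chaperone, rose by 0.51 and 0.24 (adjusted p = 6.53e-12 and 1.60e-06).

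The members were last set beside 27 HIF targets, 26 of which were tested. In shARNT 21 were called lower and 4 higher, with a median log2 fold change of -1.38, and in shBMAL1 13 were lower and 10 higher, with a median of -0.12. Shares over all tested genes were 41.3% lower and 40.5% higher in shARNT, and 31.5% and 31.9% in shBMAL1. The list was chosen with results of these libraries known and is not independent evidence of a direction. In shARNT, 1 of the 26 targets had a lower fold change than NDRG1, 11 than NDRG2, 11 than NDRG4 and 16 than NDRG3. The single target below NDRG1 was CA9, a carbonic anhydrase, at -6.17, chosen here after its values were seen. In shBMAL1, 0 of the 26 lay below NDRG4, 2 below NDRG1, 13 below NDRG3 and 18 below NDRG2.

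Individual targets of the list took several arrangements. VEGFA, the angiogenic growth factor, fell by 3.88 in shARNT and 0.46 in shBMAL1 (adjusted p = 4.59e-23 and 8.77e-09), and P4HA1, a collagen prolyl hydroxylase subunit, fell by 2.58 and 1.04 (adjusted p = 7.54e-21 and 3.80e-14). Both were lower in each depletion and lower in shARNT than in shBMAL1, the arrangement also seen for NDRG1. CA12, another carbonic anhydrase, fell by 3.17 in shARNT and rose by 0.23 in shBMAL1 (adjusted p = 4.59e-23 and 9.90e-06), the arrangement also seen for NDRG2. PGK1, a glycolytic enzyme, rose by 0.88 in shBMAL1 (adjusted p = 2.62e-14), and its change in shARNT (-0.23, adjusted p = 2.89e-06) was 0.00 under library size alone.

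**Figure D5:**
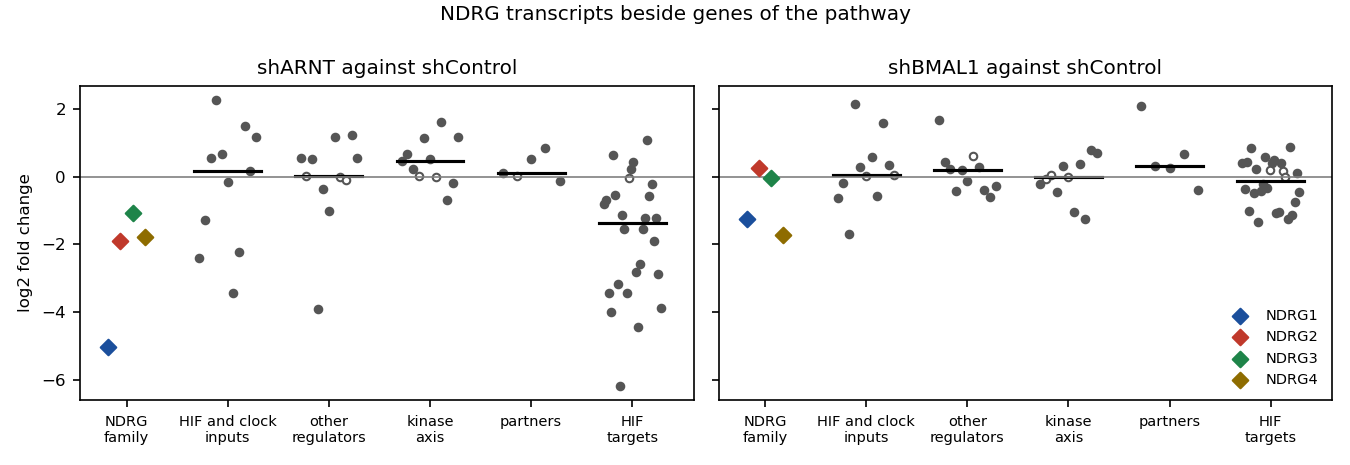
log2 fold changes of the NDRG members (diamonds) beside the tested genes of 5 lists (circles, filled where the adjusted p was under 0.1) in each depletion against shControl, with the list median as a bar. In shARNT most HIF targets lie below 0 together with all members. In shBMAL1 the list medians run from -0.12 (HIF targets) to 0.30 (partners), and NDRG4 lies below every HIF target.

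Genes with the pattern most like each member were sought over the 9 libraries among 13431 other genes, by the root mean square difference between log2 CPM profiles centred on their own shControl mean. For NDRG1 these were SERPING1 (difference 0.242), ZNF541 (0.290) and CPA4 (0.337), and for NDRG4 they were DTX4 (0.168), TGFB3 (0.182) and HIST1H2AG (0.184). For NDRG2 they were ARRB1 (0.0847), AGBL2 (0.0869) and PPIL3 (0.0900), and for NDRG3 SMYD2 (0.0493), LSS (0.0525) and ITGA1 (0.0528). HIST1H2AG belongs to a family of near-identical histone genes, so its counts are uncertain. No member appeared among these nearest genes of another member. Only the nearest 3 of the 13431 genes were listed for each, so this does not show how alike the members were.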

How the data were processed

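RNA sequencing measured the transcripts of 9 A498 libraries. Per the study's methods, the authors aligned paired-end reads to GRCh37 with SeqMan NGen and exported counts with ArrayStar, whereas the submitters' processing notes list STAR, hg38 and DESeq2. The annotation release, the use of strand, and whether reads or pairs were counted were not given in the sources used here. The deposited values were expected counts (total reads per gene, without normalization), and a value of 0.05 stood for no reads and was set to 0. Values were rounded, and the rows of 45 repeated names were summed, giving 27671 genes from 27716 rows.

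Genes were tested with the quasi-likelihood test of edgeR 4.0.16 (R 4.3.3) in 1 fit of all libraries with the group as factor, TMM scaling and filterByExpr, and a threshold of 0.1 on p after Benjamini-Hochberg adjustment over 15551 genes. Intervals are 95% intervals of the fitted log2 fold change. The members, lists and tests were chosen with earlier results of these data known. From each list the 2 genes with the smallest p in each depletion were named, with SGK1, GSK3B, MYC, EPAS1 and HIF1A added, and 1 gene so named is not reported here. Gene positions and transcript lengths came from GENCODE lifted to GRCh37. The chi-square per gene between replicates was 2.12 to 2.45 where 2 libraries shared 20 to 100 counts of a gene, and none were merged. Counting both reads of a pair would raise this value, so it cannot show whether replicates differed by more than sampling noise. Nothing says whether the biological replicates came from separate infections, so p-values measure the spread between these libraries. Alternatives were RLE scaling, library size alone, no filter, DESeq2 1.42.0, the 6 libraries compared, each library left out, a replicate block, halved counts and a minimum fold change of 1.5. The computation was tested on simulated data.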

Additional observations from a re-analysis of the deposited data

Results flagged for a closer look

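The shARNT and shBMAL1 libraries differed in 2 of the paralogs by the direct edgeR quasi-likelihood test. In that comparison 81.2% of all tested genes were also called. NDRG2 differed by -2.14 on the log2 scale and was lower in all 3 shARNT libraries than in any shBMAL1 library. NDRG3 differed by -1.04, again with all 3 shARNT libraries below the shBMAL1 libraries. Such a lack of overlap in this direction was found for 40.3% of all tested genes. When single libraries were left out in turn, the adjusted p of this edgeR comparison was at most 1.42e-12 for NDRG2 and 2.27e-12 for NDRG3.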

How the results depend on the processing

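Changes of the members against shControl, and between the depletions, kept their direction and call under RLE scaling, no filter on low counts, DESeq2, the fit of the 6 libraries compared and halved counts. Under library size alone the NDRG1 values were -4.79 in shARNT and -3.60 in shARNT against shBMAL1, and 2 values that were not called turned in sign, NDRG3 in shBMAL1 (0.017) and NDRG4 in shARNT against shBMAL1 (0.12). With single libraries left out, that NDRG4 value ranged from -0.15 to 0.070, positive without shBMAL1 replicate 2, and the call of NDRG2 in shBMAL1 (0.19 to 0.33) had an adjusted p of at most 0.0846. A minimum fold change of 1.5 left 6966, 2110 and 6831 genes called in shARNT, in shBMAL1 and in shARNT against shBMAL1, in place of 12723, 9852 and 12630, and ended the call of NDRG2 in shBMAL1 (0.25, adjusted p = 1). The replicate numbers did not pair the libraries (correlations of same-numbered deviations from -0.04 to 0.08), not every library correlated best with its own number, and a replicate block changed no call of a member, gave 0.25 for NDRG2 in shBMAL1 (adjusted p = 0.00400), and called 12684, 9833 and 12591 genes. The scaling of the pathway lists was an alternative chosen after seeing the data. NDRG4 rested on 51 to 207 counts, and its intervals were the widest of the family.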
